A study of Mus musculus with 18 samples.

Results

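The genes described here are 10 protein-coding genes of the unfolded protein response of the endoplasmic reticulum (ER), namely Hspa5, Hsp90b1, Xbp1, Dnajb9, Herpud1, Sdf2l1, Pdia4, Calr, Atf6 and Creld2. They were chosen by symbol among the 21859 genes of the deposited gene table, and all 10 had a row. Among the 32253 rows for promoter upstream transcripts (PROMPTs), which are short RNAs made upstream of a gene and antisense to it, 5 of the 10 genes had a row. The material was nascent RNA of E14 murine embryonic stem (ES) cells, purified by TT-seq after a 5 min pulse of 4-thiouridine (4sU), which marks RNA made during the pulse. The study asked how transcription changes when SPT16, a subunit of the histone chaperone FACT, is degraded.

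There were 18 libraries in 6 groups of 3. The groups were Untagged_EtOH, Untagged_3-IAA, SPT16_AID_V5_Clone1_EtOH, SPT16_AID_V5_Clone1_3-IAA, SPT16_AID_V5_Clone2_EtOH and SPT16_AID_V5_Clone2_3-IAA. All cells, including the untagged ones, carried osTIR1, the plant F-box protein that recruits AID-tagged proteins for degradation, and all were grown feeder-free with serum, LIF and the GSK and MEK inhibitors of the 2i medium. In both clones endogenous SPT16 carried a mini-AID and V5 tag, and in untagged cells it did not. Cells were treated for 24 h with the auxin 3-indoleacetic acid (3-IAA) or with 0.1% ethanol (EtOH). By the labels the dose was 500 nM of 3-IAA and 500 mM of 4sU, whereas the study's methods state 500 µM for each. The tagged cells are 2 clones of 1 parental line.

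Each level below is the authors' mean over the 18 libraries of counts divided by size factors, termed the mean normalized count. It is 1 value per gene and has no error of its own. It also mixes libraries with and without SPT16 depletion, since 6 of the 18 came from tagged cells given 3-IAA. Values per library and per condition were not analysed here. The levels therefore describe the genes in this set of cultures as a whole, no difference between genes could be set against the spread between libraries, and no response to SPT16 depletion is given. To check the labelled cell type, markers were placed among the genes with reads per kb of gene span. The 8 ES cell markers lay at percentiles 95.9 to 99.9, among them Zfp42 at 99.6 and Klf4 at 99.2. The 5 markers of liver, heart and B cells, which such a culture should lack, lay at percentiles 14.4 (Alb) to 40.7 (Cd79a). None of those 5 was at 0, as their undivided mean normalized counts ran from 1.92 for Alb to 32.7 for Cd79a.

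The unfolded protein response adjusts the folding capacity of the ER to the load of secretory and membrane proteins. In mammals 3 membrane sensors, ATF6, IRE1 (Ern1) and PERK (Eif2ak3), are held inactive in part by the chaperone BiP (Hspa5). When unfolded proteins engage BiP, ATF6 moves to the Golgi, where proteases release its cytosolic part as a transcription factor, IRE1 splices the mRNA of Xbp1 so that it encodes an active factor, and PERK slows translation. The freed ATF6 acts with the factor NF-Y on the ER stress response element (ERSE), which is CCAAT, 9 bases of any kind and CCACG. NF-Y binds the CCAAT part and ATF6 the CCACG part. A related element, ERSE-II, is ATTGG, 1 base of any kind and CCACG.

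The promoters are shown first, since the ERSE is the element through which ATF6 acts on its target genes. The members were chosen as genes of this same response. Their share of matches below is therefore a description and not independent evidence. RefSeq promoter windows (GRCm38.p6), each running from 250 bases before the annotated start to 50 after it, were found for 9 of the 10 genes, all except Atf6. An exact ERSE on either strand was present in 4 of these 9 (44.4%), Hspa5, Hsp90b1, Calr and Creld2. Over all 27025 genes with a window it was present in 37 (0.137%), so 4 of those 37 genes are members. Herpud1 held no exact ERSE but an exact ERSE-II, which 12 genes of the 27025 had (0.0444%). The 250 bases before the start of these 5 genes follow, 5′ to 3′ on the strand of the gene, with each exact ERSE or ERSE-II in capitals. Where the element lies on the other strand, the capitals show its reverse complement, which begins with CGTGG and ends with ATTGG.
Hspa5, chr2:34771840-34772089, plus strand: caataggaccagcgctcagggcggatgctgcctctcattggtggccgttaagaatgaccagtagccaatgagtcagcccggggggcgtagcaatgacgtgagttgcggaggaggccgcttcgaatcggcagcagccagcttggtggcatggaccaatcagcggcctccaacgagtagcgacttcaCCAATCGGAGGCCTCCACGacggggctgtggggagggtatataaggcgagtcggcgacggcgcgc
Hsp90b1, chr10:86705445-86705694, minus strand: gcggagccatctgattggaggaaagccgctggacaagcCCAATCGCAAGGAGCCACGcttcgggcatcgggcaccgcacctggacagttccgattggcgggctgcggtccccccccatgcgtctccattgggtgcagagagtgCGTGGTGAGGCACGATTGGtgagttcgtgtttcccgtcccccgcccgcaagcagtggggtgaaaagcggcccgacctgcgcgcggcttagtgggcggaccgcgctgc
Calr, chr8:84846932-84847181, minus strand: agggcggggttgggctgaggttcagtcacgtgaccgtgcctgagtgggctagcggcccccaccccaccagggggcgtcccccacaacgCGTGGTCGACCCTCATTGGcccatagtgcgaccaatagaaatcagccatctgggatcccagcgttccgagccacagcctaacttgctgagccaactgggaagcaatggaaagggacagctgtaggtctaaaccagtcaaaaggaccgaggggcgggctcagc
Creld2, chr15:88819396-88819645, plus strand: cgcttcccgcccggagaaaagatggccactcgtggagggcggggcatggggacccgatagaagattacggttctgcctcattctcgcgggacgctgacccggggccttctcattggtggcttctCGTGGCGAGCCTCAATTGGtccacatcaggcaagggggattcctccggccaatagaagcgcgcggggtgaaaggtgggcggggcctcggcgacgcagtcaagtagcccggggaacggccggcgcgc
Herpud1, chr8:94386179-94386428, plus strand: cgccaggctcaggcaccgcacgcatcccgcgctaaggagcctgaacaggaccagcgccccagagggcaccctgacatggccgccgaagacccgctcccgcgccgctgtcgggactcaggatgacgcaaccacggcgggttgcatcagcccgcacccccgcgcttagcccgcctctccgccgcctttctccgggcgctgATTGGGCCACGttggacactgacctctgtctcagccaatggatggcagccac

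Hsp90b1, which encodes the ER form of HSP90, was the only member with more than 1 exact ERSE, and its 2 copies faced in opposite directions. In Hspa5 the element read in the direction of the gene, and in Calr and Creld2 in the opposite direction. Along the strand of the gene, its first base lay between -212 and -65 relative to the RefSeq start in these 4 genes. Written on their own strand the 5 exact elements are set out below with their positions from the start, and the fixed bases are in capitals. Positions run along the strand of the gene, so an element on the other strand has its CCACG at the first position given. Their 9 middle bases differed from one another.
Hspa5, -65 to -47: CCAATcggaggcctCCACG
Hsp90b1, -212 to -194: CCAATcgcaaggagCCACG
Hsp90b1, -107 to -89: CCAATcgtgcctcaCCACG
Calr, -162 to -144: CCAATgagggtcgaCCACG
Creld2, -126 to -108: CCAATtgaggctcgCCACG

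With 1 mismatch allowed in the 10 fixed bases, 6 of the 9 windows held an ERSE (66.7%), against 466 of 27025 genes (1.72%). The added genes were Herpud1, whose site begins within its last bases before the start, and Pdia4, and Hsp90b1 gained 1 further site. These 3 sites follow in the same form, so the differing base stands among the capitals, and the exact ERSE-II of Herpud1 is added for comparison.
Herpud1, -18 to 1: CCAATggatggcagCCACA
Pdia4, -108 to -90: CCAATcacgggctgCCACT
Hsp90b1, -172 to -154: CCAATcggaactgtCCAGG
Herpud1, -52 to -42: ATTGGgCCACG

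Xbp1, Dnajb9 and Sdf2l1 held neither element, exact or with 1 mismatch for the ERSE. Both single parts of the ERSE, CCAAT and CCACG, were present in Dnajb9 and Sdf2l1, but not at the spacing of the element, and Xbp1 held neither part in its window. Each part alone was common, as CCAAT stood in 37.4% and CCACG in 32.8% of all 32851 windows on either strand, and every ERSE contains both. The exact UPRE, TGACGTGG, a site bound by XBP1 and ATF6, was in none of the 9 windows and in 0.676% of all windows. These are matches of letters in a fixed window and say nothing of whether a factor was bound. RefSeq and Gencode starts lay 258 bases apart for Dnajb9 and 120 for Hspa5, and at most 82 bases apart for the other 7, so the windows are tied to the RefSeq start. The window of Dnajb9 lay wholly within its Gencode gene, so no base upstream of its Gencode start was searched.

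**Figure D1:**
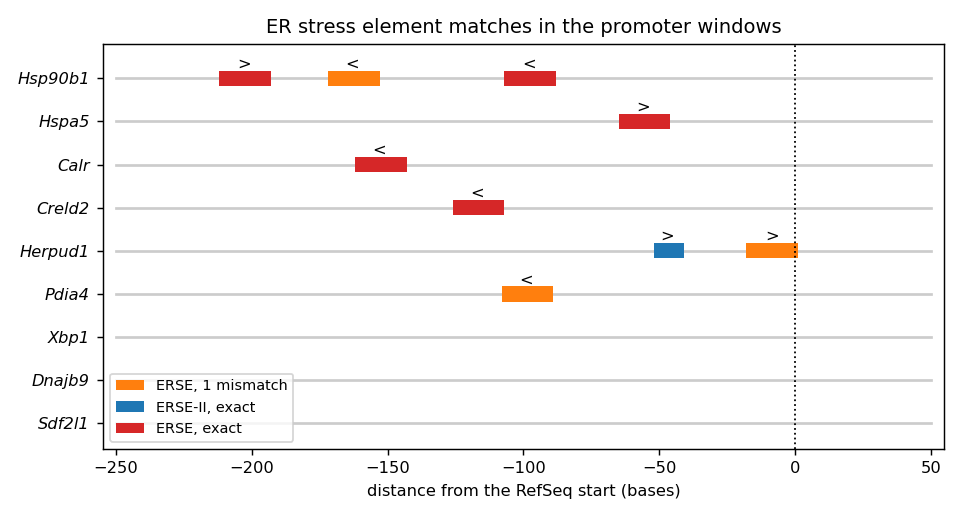
Matches to the ER stress elements along the promoter windows of 9 members. The x axis is the distance in bases from the RefSeq start (dotted line), each bar is 1 match coloured by element and number of mismatches, and > or < gives its direction relative to the gene. Hsp90b1 shows 3 ERSE matches, and Xbp1, Dnajb9 and Sdf2l1 show none.

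The same search was made in the other gene lists, as a count with no test. Only genes with a promoter window were counted, so most of these lists are shorter here than in the comparison of levels below. Of 16 further sensors and signalling genes 1 had an exact match, Dnajc3, an ER co-chaperone that inhibits PERK. Among 19 further chaperones and folding enzymes there were 3, the lectin chaperone Canx, the oxidase Ero1b and the disulfide isomerase Pdia6. None was found among 12 genes of the translocon, signal peptidase and vesicle coat, 7 ES cell markers or 5 markers of other tissues. Of 14 genes of ER-associated degradation there were 2, the ubiquitin ligase Syvn1 and Derl3. These genes were named after their matches were seen. With up to 1 mismatch, 7 of the 19 chaperones (36.8%) and 5 of the 14 degradation genes (35.7%) held an ERSE. So did 2 of the 16 sensors and signalling genes (12.5%) and 2 of the 12 translocon genes (16.7%). The count stayed at 0 among the ES cell markers and the markers of other tissues. An exact ERSE-II was found in 1 of the 19 chaperones, Dnajb11. The ERSE of Calr and that of Creld2 were each counted for a second gene as well, 1700122E12Rik and Alg12, because those genes start upstream on the opposite strand and their windows cover the same bases. The 37 genes hold 35 distinct sites.

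By mean normalized count the members spanned 41.0-fold. Hsp90b1 stood highest at 13019, and Atf6, the sensor, followed at 12030. Calr, the lectin chaperone calreticulin that also buffers ER calcium, was at 6910, and Hspa5 at 6412. These 4 were followed by Pdia4, a disulfide isomerase, at 4934.

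The other 5 were lower. Xbp1, the transcription factor activated by IRE1, was at 2076. Herpud1, a membrane protein of ER-associated degradation, was at 1302, Dnajb9, a J-domain co-chaperone of BiP, at 1211, and Creld2, an ER protein with disulfide isomerase activity, at 1183. Sdf2l1, a component of ER chaperone complexes that works with J-domain co-chaperones, was lowest at 318. The median of the 10 was 3505, against 421 for the 20157 genes of the table with reads, and 9 members lay above that median, all but Sdf2l1. Only Hsp90b1 and Atf6 lay in the highest 10% of these genes, at percentiles 94.8 and 94.1. Together they made up 50.7% of the members' summed level, and the 10 genes made up 0.0884% of the sum over all genes.

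This order does not take gene length into account. The Atf6 gene spans 163098 bases, of which exons are 5.66%, whereas the Sdf2l1 gene spans 2246 bases. Nascent RNA includes introns, and the table itself bore the mark of counting over whole genes, because 323 of 325 genes that lie within another protein-coding gene of the same strand were listed at 0 (99.4%), against 6.30% of other genes. No member overlapped a protein-coding gene on its own strand. Levels were therefore set per kb of gene span, and the values per kb of exon (the union of annotated exons) are given beside them.

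Per kb of gene span, Calr was highest at 1359 and Hspa5 second at 1149, followed by Hsp90b1 at 851. These 3 abundant chaperones stood at percentiles 99.3, 99.1 and 98.7 of all genes with reads. Xbp1 came next at 397, then Pdia4 at 285 and Dnajb9 at 254, which completed the 6 members within the highest 10%. Below that limit of 239 lay Creld2 at 168, Herpud1 at 146 and Sdf2l1 at 141. Atf6 moved from second place to last, at 73.8 and percentile 65.5, 3.40 times the median gene. Neighbours in this order were 1.03-fold (Herpud1 over Sdf2l1) to 2.15-fold (Hsp90b1 over Xbp1) apart, and without values per library no neighbours could be said to differ.

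Per kb of exon the order was Hsp90b1 (3229), Calr (2399), Pdia4 (2057), Hspa5 (1516), Atf6 (1303), Creld2 (866), Xbp1 (639), Herpud1 (558), Dnajb9 (475) and Sdf2l1 (287). On this scale 4 members lay in the highest 10%, with Hspa5 just inside the limit of 1512. On both length scales all 10 members exceeded the median gene, which was 21.7 per kb of span and 120 per kb of exon. Genes rich in introns gain most on the exon scale. Exons made up 75.8% of the span of Hspa5 and 13.9% of that of Pdia4. Reads that Calr shares with its processed pseudogene Calr-ps are dropped when only unique alignments are kept, and such reads are not part of its level.

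**Figure D2:**
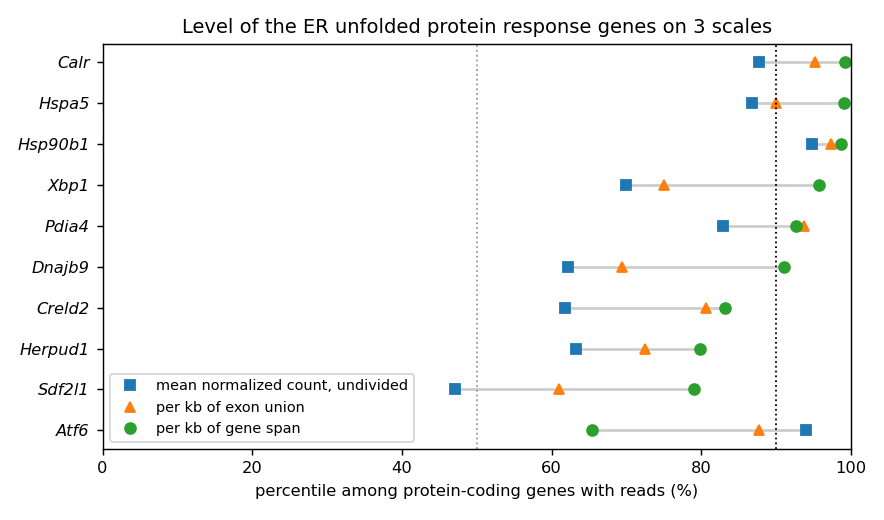
Percentile of each member among protein-coding genes with reads (x axis, %) on 3 scales, shown as squares for the undivided mean normalized count, triangles per kb of exon union and circles per kb of gene span. Dotted lines mark the median gene and the limit of the highest 10%. Atf6 moves from percentile 94.1 undivided to 65.5 per kb of span, and each of the other 9 members lies higher per kb of span than undivided.

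The members were next set beside other genes of the secretory pathway, in lists whose genes were chosen by function. Per kb of gene span the median member was at percentile 91.8, and 6 of 10 lay in the highest 10% of genes, the share of all genes there being 10% by construction. For 17 further sensors, signalling factors and partners of the response the median percentile was 87.6, with 6 genes in the highest 10%. Within that list Nfyc, a subunit of NF-Y, was highest per kb of exon, at 208 per kb of span and 5251 per kb of exon, and Creb3, an ER-anchored transcription factor, was lowest at 146 and 291. The other 2 sensors lay close to Atf6 (73.8) per kb of span, Ern1 at 87.1 and Eif2ak3 at 50.7. These 2 were named after their values were seen. Ddit3, which encodes CHOP, shares its symbol between 2 rows (mean normalized counts 801 and 0) and was left out.

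Further ER chaperones and folding enzymes (24 genes) had a median percentile of 73.9, with 5 in the highest 10%. Canx was highest and Fkbp14, a prolyl isomerase, lowest per kb of exon, at 539 and 16.2 per kb of span. The 18 genes of ER-associated degradation had a median percentile of 71.2, and 1 of them, Vcp, the ATPase that extracts proteins from the membrane, lay in the highest 10% at 384 per kb of span, while Derl3 was lowest at 23.2. The 16 genes of the translocon, signal peptidase and vesicle coat had a median percentile of 89.4, with 6 in the highest 10%. Per kb of exon the highest there was Ssr2 of the translocon-associated complex, at 587 per kb of span, and the lowest the peptidase subunit Sec11c, at 56.8. The order of the lists depended on the scale. Undivided, the median percentile was 76.5 for the members, below the 82.6 of the sensors and signalling genes, the 82.5 of the translocon list and the 78.8 of the chaperones, and above the 69.8 of ER-associated degradation. On that scale 2 of 10 members lay in the highest 10%, beside 4 of 17 sensors and signalling genes, 6 of 24 chaperones, 1 of 18 degradation genes and 1 of 16 translocon genes. Per kb of exon the median percentiles were 84.2, 80.0, 79.2, 71.4 and 82.6 for the members, the sensors and signalling genes, the chaperones, the degradation genes and the translocon list, with 4, 5, 7, 1 and 6 genes in the highest 10%. The lists are of unequal size and no test was made between them.

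**Figure D3:**
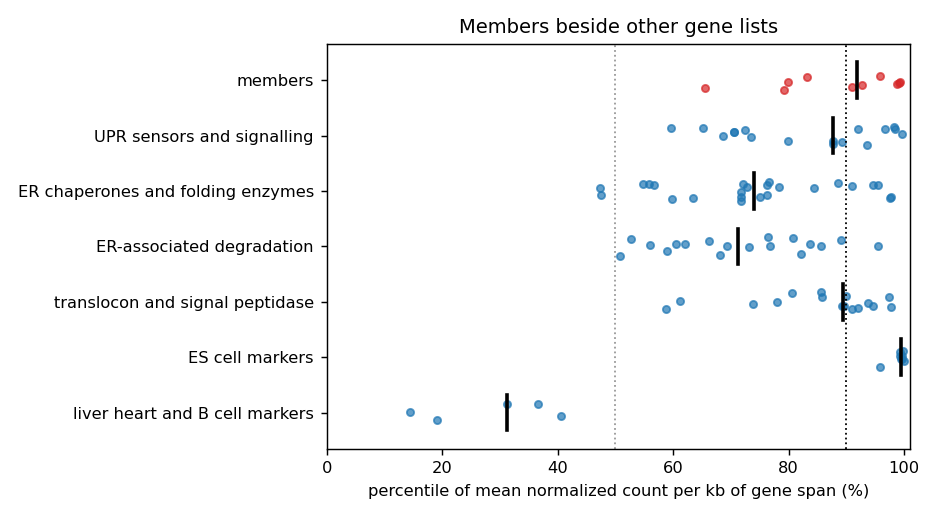
Percentile of mean normalized count per kb of gene span (x axis, %) for each gene of 7 lists, with 1 point per gene, spread vertically at random for display, and a black bar at each list's median. Dotted lines mark the median gene and the limit of the highest 10%. The members' median is 91.8, that of the ES cell markers 99.5 and that of the liver, heart and B cell markers 31.2.

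Several members have a relative that works in another compartment or beside them in the ER. In 13 such pairs the member was the higher of the pair in 4 per kb of exon and in 8 per kb of gene span, and the 2 scales gave the same side in 7 pairs. In the other 6 pairs the side depended on the scale. The 3 pairs with the member higher on both scales were Xbp1 over Creb3 (2.20-fold per kb of exon, 2.72-fold per kb of span), Creld2 over Creld1 (5.62-fold and 2.58-fold) and Herpud1 over Herpud2 (1.54-fold and 3.00-fold).

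The cytosolic chaperones exceeded their ER relatives on both scales. Hsp90ab1, cytosolic HSP90, was 8.69-fold above Hsp90b1 per kb of span and 4.20-fold per kb of exon, and Hsp90aa1, its other cytosolic form, 2.95-fold and 2.40-fold. Hspa8, the cytosolic HSP70, was 1.61-fold above Hspa5 per kb of span and 2.58-fold per kb of exon. The other pair with the relative higher on both scales was in the ER itself, with Pdia3, another disulfide isomerase, 1.32-fold and 1.45-fold above Pdia4.

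Against the mitochondrial relatives the side turned with the scale. Hspa5 was 1.18-fold above Hspa9 per kb of span, and Hspa9 was 2.53-fold above Hspa5 per kb of exon. Hsp90b1 was 3.82-fold above Trap1 per kb of span, while per kb of exon Trap1 was 1.02-fold above it. Calr against its membrane-bound counterpart Canx (2.52-fold higher per kb of span, 1.52-fold lower per kb of exon), Dnajb9 against the lumenal co-chaperone Dnajb11 (2.05-fold higher, 1.76-fold lower) and Sdf2l1 against Sdf2 (1.12-fold higher, 2.83-fold lower) also turned. Atf6 turned the other way, as it was 4.14-fold above its paralogue Atf6b per kb of exon, and Atf6b was 1.48-fold above it per kb of span. Undivided, Atf6 had 13.9 times the reads of Atf6b, whose gene spans 7.93 kb.

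**Figure D4:**
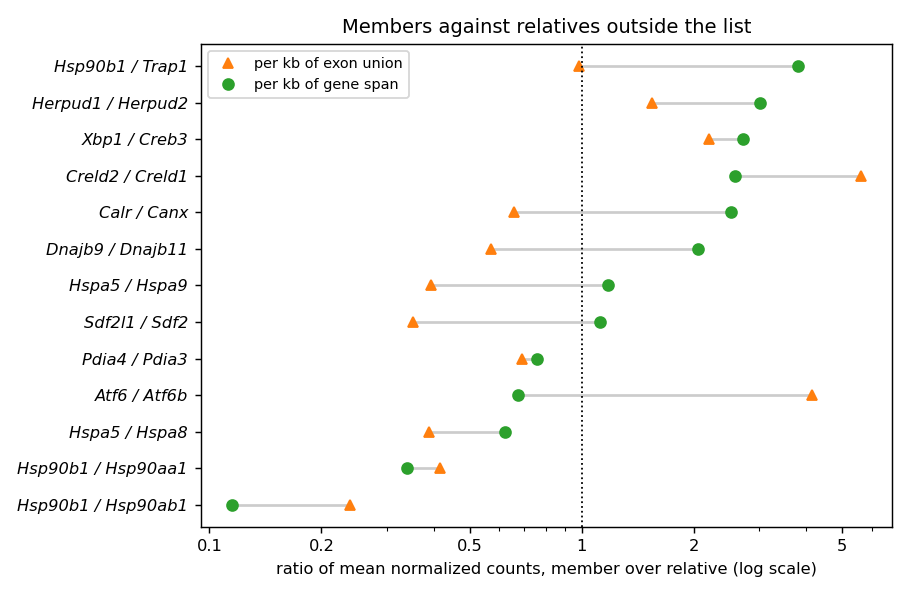
Ratio of the mean normalized count of each member to that of a relative outside the list (x axis, log scale), per kb of gene span (circles) and per kb of exon union (triangles), for 13 pairs. The dotted line marks equal levels. The ratios run from 0.115 for Hsp90b1 over Hsp90ab1 per kb of span to 5.62 for Creld2 over Creld1 per kb of exon.

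Antisense transcription upstream of the promoter was listed for 5 members. The PROMPT of Hspa5 had a mean normalized count of 67.3, that of Pdia4 48.9, that of Xbp1 18.2, that of Sdf2l1 4.46 and that of Dnajb9 1.36. Over the 18 libraries the last amounts to 24.5 normalized reads in all. The median PROMPT with reads was at 0.815, and Hspa5 and Pdia4 stood at percentiles 97.6 and 96.3 of the 23257 PROMPTs with reads, whereas Dnajb9 stood at 57.8. All 5 were at 1 or above, as were 10875 of 32253 rows.

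Each PROMPT was next set against its gene. The PROMPT level was 1.40% of the gene's for Sdf2l1, 1.05% for Hspa5, 0.990% for Pdia4, 0.877% for Xbp1 and 0.112% for Dnajb9. The median over 14398 pairs with a gene level of at least 1 was 0.175%, so 4 of the 5 lay above it and Dnajb9 below. Genes and PROMPTs were counted in separate tables whose scaling is not shown to be the same, so the percentages hold relative to other pairs. Among 1838 genes with a level within 1.5-fold of that of Hspa5, its PROMPT was at percentile 96.5, where the median was 3.29. For Pdia4 the like percentile was 94.2, for Xbp1 84.7, for Sdf2l1 73.7 and for Dnajb9 37.5. With the gene level taken per kb of span, only Pdia4 (17.1%) and Hspa5 (5.86%) stayed above the median of 4.68%, and Xbp1 was at 4.59%.

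**Figure D5:**
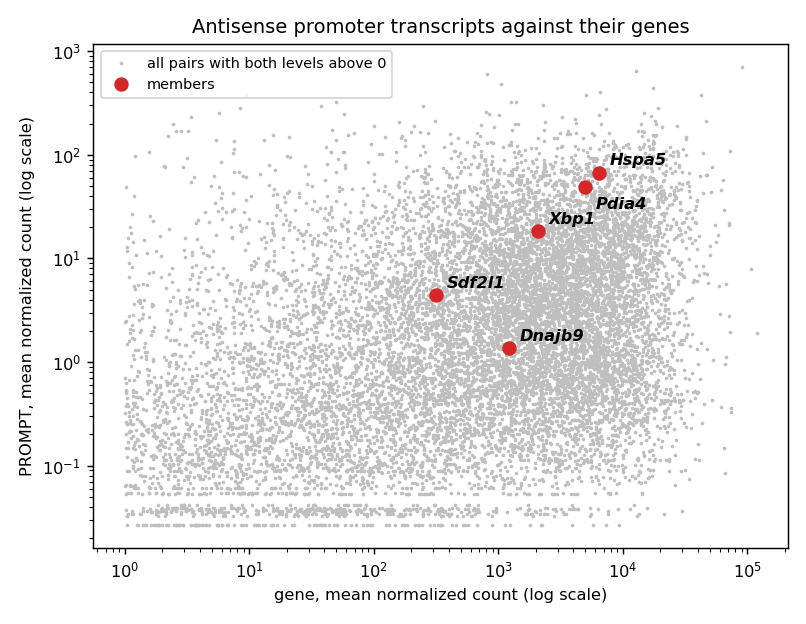
Mean normalized count of each PROMPT (y axis, log scale) against that of its gene (x axis, log scale). Grey points are the pairs with a gene level of at least 1 and a PROMPT level above 0, and red points are the 5 members with a row. Hspa5 and Pdia4 lie high in the cloud at 67.3 and 48.9, and Dnajb9 lies at 1.36.

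The 5 members without a PROMPT row were those with a gene on the opposite strand in the 1000 bases upstream, leaving out genes of small RNAs. Upstream of Hsp90b1 the protein-coding gene Ttc41 starts 302 bases away on the opposite strand (mean normalized count 558), and upstream of Creld2 the mannosyltransferase gene Alg12 starts 328 bases away (1189). Calr has the noncoding gene 1700122E12Rik at 254 bases and Atf6 the noncoding gene Gm9929 at 874 bases, and the antisense gene Gm15890 runs across the start of Herpud1. The 5 members with a row had no such gene. In the table as a whole 97.2% of 16519 genes with no opposite gene in this window had a row, against 38.9% of 3092 with a protein-coding gene there and 38.3% of 2136 with another gene. A missing row therefore gives no level for those 5 promoters. The opposite strand upstream of Hsp90b1 and Creld2 is represented in the gene table by Ttc41, at 7.86 per kb of span, and Alg12, at 84.5 per kb of span, against 851 and 168 for the members themselves.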

How the data were processed

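TT-seq libraries (18, in 6 conditions of 3) of ES cells were analysed from 2 of the 4 deposited tables. Per the study's methods, the authors used Trim Galore for trimming and STAR for alignment to mm10 (unique alignments only). Strand-specific featureCounts by genomic coordinates and DESeq2 for normalization followed, without removing low genes. The methods name Gencode vM25 for gene files of later steps and do not name the annotation used for counting. The submitters' processing notes list HTSeq and deepTools besides STAR and DESeq2. Versions are not given in the sources used here. The deposited signal used is the baseMean, the authors' mean over libraries of counts divided by size factors. The other value columns hold the authors' own comparison of SPT16-depleted with control libraries (log2 fold changes, standard errors, p-values and adjusted p-values) and were not used, so no test across genes was made. The tables of eRNAs and of transcripts from distal DNaseI hypersensitive sites name no gene and were not used.

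Genes were matched by identifier to Gencode vM21 on GRCm38 (21817 of 21859), and levels were divided by gene span or by the union of exons in kb. The planned length was the exon union, and the gene span was put first after genes within other genes were found at 0. Percentiles are among genes with a baseMean above 0. Genes that share a symbol were left out of lists and pairs, and 1 marker gene is not reported here, for a reason unrelated to its value. PROMPTs were paired with genes by symbol, and opposite-strand genes were sought in 1000 bases upstream of the Gencode start. RefSeq promoter windows (32851 for 27025 genes, 250 bases before to 50 after the start) were searched on both strands. The members and lists were chosen with earlier results of these data known. Named were the members, the highest and lowest gene per kb of exon in each list, the relatives and the opposite-strand genes. Ern1, Eif2ak3, Dnajc3, Ero1b, Pdia6 and Syvn1 were named after their values or matches were seen. The lowest baseMean above 0 was 0.0216 for genes and 0.0266 for PROMPTs. The study's methods give an approximate sequencing depth for TT-seq libraries, but the depth of each single library was not available here. The motif search and percentiles were tested on simulated data. Python 3.11.15 with numpy 2.4.6, pandas 2.3.3 and matplotlib 3.10.9 was used. Alternatives tried were other backgrounds, length scales, level minimums, pseudocounts and motif settings.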

Additional observations from a re-analysis of the deposited data

How the results depend on the processing

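Of the 10 members, 2 lay in the highest 10% of genes by undivided level, and the count was 4 per kb of exon union and 6 per kb of gene span, while backgrounds of all genes or of genes with a level of at least 1 left it at 2. Of 13 pairs with a relative, the member was higher in 4 per kb of exon union, in 8 per kb of gene span and in 4 undivided. PROMPTs at a level of at least 1 numbered 5, at least 10 left 3, and at least 0.5 or leaving out windows with an opposite gene left 5. Above the median PROMPT to gene ratio were 4 of 5 members, also with a pseudocount of 0.5 or gene levels of at least 10, and 2 when the gene level was per kb of span, a setting chosen after seeing the data. An exact ERSE stood in 4 windows, in 6 with 1 mismatch allowed, in 2 on the strand of the gene alone and in 4 before the start alone. No paired analysis was possible because the levels are the authors' means over all libraries, so neither a fit with the replicate number as a block nor leaving out each replicate was run. The search for an ER retrieval signal at the protein ends was not run, as protein sequences were not used here. Summed over the 18 libraries, the PROMPT of Dnajb9 rests on 24.5 normalized reads and that of Hspa5 on 1212. The depth of each single library was not available.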
